A study of Mus musculus with 20 samples.

Results

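The 10 transcription factors described here set intestinal identity and direct the lineages of the gut epithelium: Cdx1, Cdx2, Hnf4a, Hnf4g, Gata4, Gata6, Klf4, Klf5, Sox9 and Atoh1. They were listed by name, with earlier results of these data known, among them that Cdx1 moved against other Wnt targets. They are 10 of the 24795 genes in a table of RNA levels from 20 mouse intestinal libraries. All 10 had at least 1 RPKM (reads per kilobase of gene, scaled to the library's total) in at least 6 libraries, the filter for testing, which 12433 genes passed. Of the libraries, 6 came from Apc Min mice treated with DM-aKG, 7 from control-treated Apc Min mice and 7 from untreated wild-type (WT) mice. The Min allele is a nonsense mutation of Apc, which helps to destroy beta-catenin, and mice with it form adenomas of the gut. DM-aKG (dimethyl alpha-ketoglutarate) is an ester of the metabolite alpha-ketoglutarate that crosses cell membranes. No age, dose, route or number of animals was given in the sources used here, so p-values measure the spread between libraries, which may be partly technical.

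The sample titles name tissue, while other fields of the labels name organoids and their medium, and the labels do not settle which was sequenced. Epcam, which marks epithelial cells, lay between 506.5 and 1090 RPKM in the 20 libraries. Transcripts of other cell types were present as well: for Myh11, the myosin of smooth muscle, the range was 36.8 to 212.6 RPKM. Summed over 13 smooth muscle genes, the level was 1053 to 1807 RPKM in DM-aKG libraries, 455.2 to 1535 RPKM in Apc Min control libraries and 1174 to 2005 RPKM in WT libraries. Summed over 15 genes of epithelial cells in general, it was 4272 to 5387 RPKM with DM-aKG, 5119 to 7221 RPKM in Apc Min controls and 5894 to 7990 RPKM in WT. Genes of other cell types differed between the groups too. Summed over 14 immune cell genes, the level was 85.0 to 235.5 RPKM with DM-aKG, 69.5 to 142.1 RPKM in Apc Min controls and 260.1 to 752.8 RPKM in WT. Summed over 15 fibroblast genes, it was 232.8 to 373.3 RPKM with DM-aKG, 393.4 to 565.1 RPKM in Apc Min controls and 183.6 to 297.7 RPKM in WT. Summed over 10 endothelial genes, it was 68.9 to 98.4 RPKM with DM-aKG, 71.5 to 95.7 RPKM in Apc Min controls and 27.7 to 67.7 RPKM in WT. Jchain made up most of the immune sum. Its mean was 121.0 RPKM with DM-aKG, 69.4 RPKM in Apc Min controls and 496.9 RPKM in WT. The mean of the whole sum was 149.3, 104.0 and 554.2 RPKM, in that order. Not every immune gene went that way: Cd14 averaged 8.22 RPKM in Apc Min controls and 3.02 RPKM in WT. None of the genes in these 3 lists was at 0 in every library of a group, and the part of these cells in the results below was not tested. In such mixed material, fewer cells of a type and less RNA per cell cannot be told apart. Estimated depth was 21.24 to 29.28 M reads per library. Rn45s, a ribosomal RNA precursor, ranged from 3836 to 6558 RPKM in replicates 1 to 4 (12 libraries) but from 1078 to 3621 RPKM in replicates 5 to 7 (8 libraries). The labels name no batch, so values within these sets of replicate numbers are given where they change a call.

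CDX proteins are homeodomain factors that specify and maintain intestinal epithelium, and Cdx1 is also known as a direct target of Wnt signalling. HNF4 nuclear receptors drive the genes of absorptive enterocytes, while GATA4 maintains the identity of the upper small intestine against the ileum and GATA6 acts along its whole length. KLF5 is known in dividing crypt cells and KLF4 in differentiated villus and goblet cells. SOX9, a Wnt target, is made in crypt progenitor and Paneth cells, and ATOH1 starts the secretory lineages.

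In the mouse genome build mm10, with GENCODE M21 gene models, Cdx2 lies at chr5:147300805-147307270 on the minus strand and Hnf4a at chr2:163506808-163572910 on the plus strand. Hnf4g lies at chr3:3508030-3658052, plus strand, and Gata4 at chr14:63198922-63271692, minus strand. Klf4 lies at chr4:55527143-55532466, minus strand, and Klf5 at chr14:99298691-99315036, plus strand. Sox9 lies at chr11:112782224-112787760 and Atoh1 at chr6:64729125-64731245, both on the plus strand. All 10 are protein-coding genes.

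RefSeq promoters of build GRCm38.p6 were matched by symbol for 4 of the 10 factors, with 2 start sites for Hnf4a. The 250 bases before each start are printed because these factors are known to bind one another's regulatory DNA, and because Cdx2 and Hnf4a varied together between libraries. Capitals mark every match, on either strand, to a short motif. For CDX factors TTTAT was searched, for GATA factors AGATAA, and for HNF1 the letters GTTAAT. For HNF4 the letters were CAAAGTCC, for the TCF and LEF factors of Wnt signalling CTTTGAT, and for the E-box of ATOH1 they were CAGCTG. No matches overlapped. The lines give, in turn, Cdx2 (chr5:147307250-147307499, minus strand), the upstream Hnf4a start (chr2:163506607-163506856, plus), the downstream Hnf4a start (chr2:163546905-163547154, plus), Klf4 (chr4:55532476-55532725, minus) and Atoh1 (chr6:64728875-64729124, plus).
Cdx2: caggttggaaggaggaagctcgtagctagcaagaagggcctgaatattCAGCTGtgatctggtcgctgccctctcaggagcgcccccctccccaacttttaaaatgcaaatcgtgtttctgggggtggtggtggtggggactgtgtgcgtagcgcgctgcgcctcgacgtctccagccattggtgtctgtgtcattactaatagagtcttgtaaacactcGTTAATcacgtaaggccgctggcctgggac
Hnf4a upstream start: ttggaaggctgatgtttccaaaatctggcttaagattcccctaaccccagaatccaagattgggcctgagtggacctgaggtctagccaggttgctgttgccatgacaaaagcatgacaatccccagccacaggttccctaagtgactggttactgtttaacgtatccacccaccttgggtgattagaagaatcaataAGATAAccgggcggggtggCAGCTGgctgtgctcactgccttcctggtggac
Hnf4a downstream start: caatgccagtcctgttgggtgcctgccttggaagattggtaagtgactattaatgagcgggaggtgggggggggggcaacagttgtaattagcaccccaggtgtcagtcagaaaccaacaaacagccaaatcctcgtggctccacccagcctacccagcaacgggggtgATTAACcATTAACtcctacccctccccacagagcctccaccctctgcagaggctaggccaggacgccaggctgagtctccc
Klf4: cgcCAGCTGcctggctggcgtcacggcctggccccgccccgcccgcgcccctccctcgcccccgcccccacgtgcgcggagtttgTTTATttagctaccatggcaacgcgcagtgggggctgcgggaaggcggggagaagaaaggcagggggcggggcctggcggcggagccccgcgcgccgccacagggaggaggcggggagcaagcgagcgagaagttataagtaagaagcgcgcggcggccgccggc
Atoh1: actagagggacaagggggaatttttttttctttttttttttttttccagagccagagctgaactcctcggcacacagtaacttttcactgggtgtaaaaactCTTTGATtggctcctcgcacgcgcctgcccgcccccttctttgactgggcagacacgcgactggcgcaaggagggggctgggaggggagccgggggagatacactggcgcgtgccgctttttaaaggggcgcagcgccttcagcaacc

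The Cdx2 stretch holds an E-box whose first base is 202 bases before the start and an HNF1 motif 30 bases before it. Upstream of the distal Hnf4a start there is 1 GATA motif at 52 bases and 1 E-box at 33 bases. The downstream Hnf4a start has 2 HNF1 motifs, at 81 and 74 bases. Klf4 has an E-box at 247 bases and a CDX motif at 165 bases, and Atoh1 has a TCF/LEF motif at 148 bases. None of the 5 stretches holds the HNF4 motif. Among all 32851 promoters in the table, the 250 bases before the start held the CDX motif in 37.3%, the GATA motif in 9.99% and the HNF1 motif in 6.43%. The HNF4 motif was found in 1.20%, the TCF/LEF motif in 3.21% and the E-box in 4271 of the promoters. These matches describe the letters only, and binding was not measured.

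RPKM is a level per length of gene, so the factors can be ordered by it. Hnf4a had the highest mean in every group, at 157.5 RPKM with DM-aKG, 134.8 RPKM in Apc Min controls and 195.9 RPKM in WT. Klf4 and Klf5 came next in all 3 groups, Hnf4g, Cdx1 and Cdx2 formed the middle, and Gata6, Sox9, Atoh1 and Gata4 the low end. Many neighbours in this order overlapped in range, among them Hnf4a and Klf4 or Klf5, Cdx1 and Cdx2, and Sox9 and Atoh1 in DM-aKG libraries. With DM-aKG the ranges were apart between Cdx2 and Gata6 and between Gata6 and Sox9. Sox9 changed its place most: it ranked eighth with DM-aKG, seventh in Apc Min controls and last in WT, where its mean was 4.20 RPKM.

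**Figure D1:**
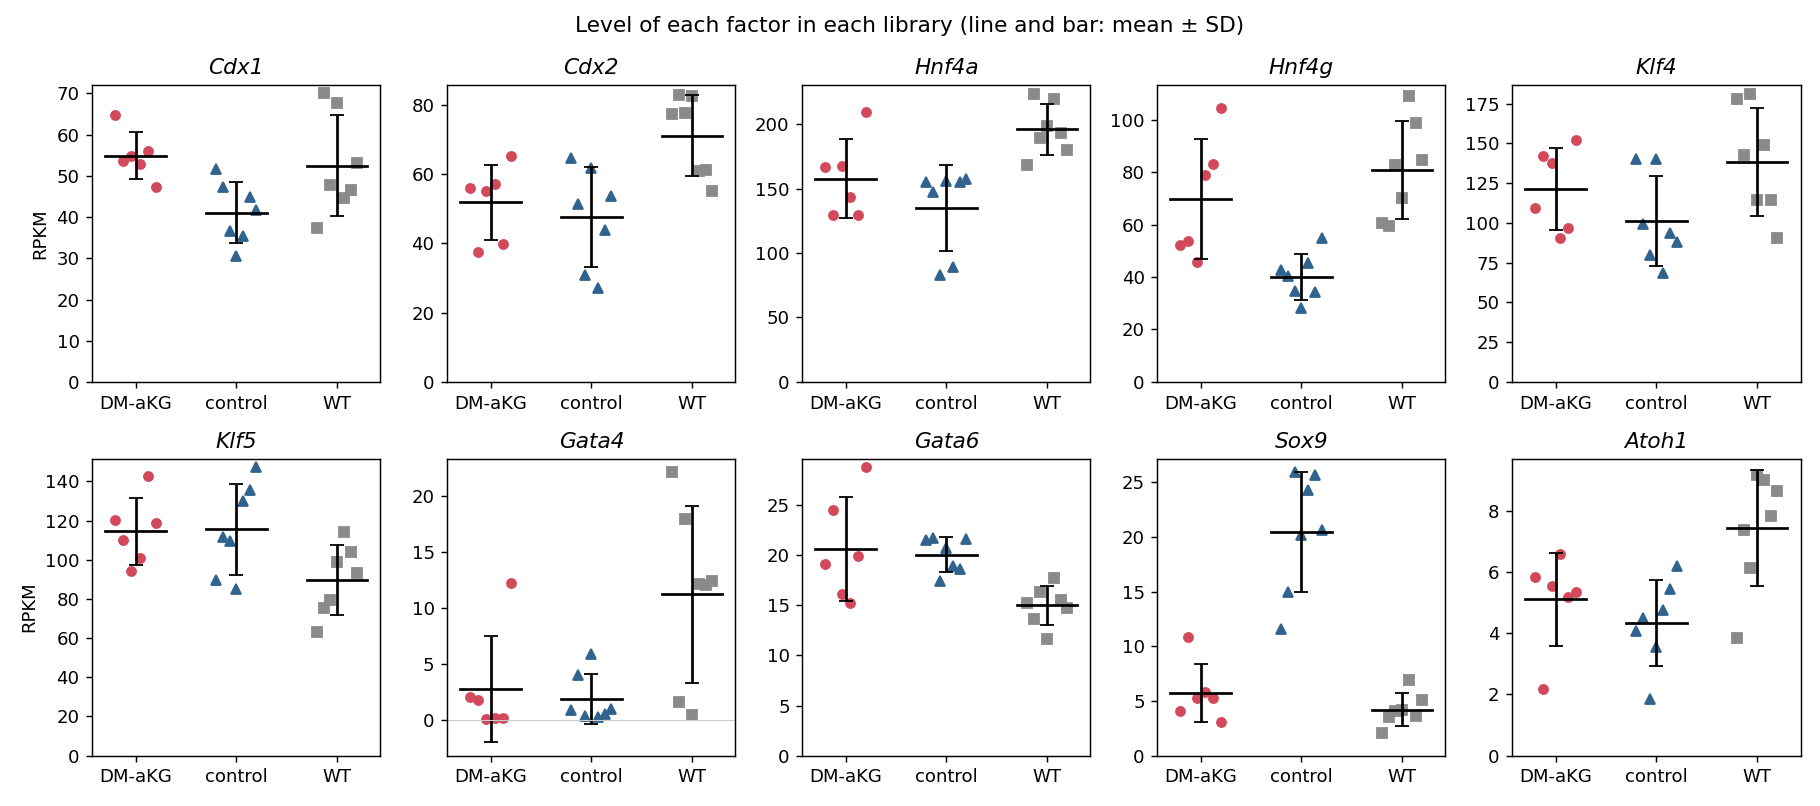
Level of each of the 10 factors in RPKM (vertical axis, linear) in every library of the 3 groups, DM-aKG, Apc Min control and WT from left to right. Points are libraries, lines and bars the mean and SD. Sox9 is the factor whose control libraries, at 11.6 to 26.0 RPKM, lie above every DM-aKG and WT library.

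The first comparison asks how the factors differed after DM-aKG within Apc Min mice. With DM-aKG, Sox9 fell and Cdx1 and Hnf4g rose, while the other 7 did not pass the test. Calls are at an adjusted p under 0.05 in limma, fitted on log2(RPKM + 1) over all genes tested and adjusted by Benjamini-Hochberg. Thus 2 of 10 factors were higher, where 5.91% of all genes tested were, and 1 of 10 was lower, against 27.6% of all genes. In either direction, 3 of 10 factors were called and 33.5% of all genes, so the share of factors called was close to that of genes at large. The median change was 0.17 on the log2 scale over the 10 factors and -0.14 over all genes.

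In the comparison of Apc Min controls with WT, all 10 factors passed the test. WT mice had no treatment while Apc Min controls had a control one, so genotype and control treatment cannot be told apart here. Of the 10, 7 were lower in Apc Min controls (Cdx1, Cdx2, Hnf4a, Hnf4g, Gata4, Klf4 and Atoh1), where 15.7% of all genes were, and 3 were higher (Gata6, Klf5 and Sox9), against 43.2% of all genes. Gata4 passed the filter only through WT, where it was high, so a difference was built into its choice. Of the other 9, 6 were lower and 3 higher, at a median log2 change of -0.45. In either direction 58.8% of all genes were called. The median log2 change was -0.51 over all 10 factors and 0.20 over all genes. With the mean of the smooth muscle genes in each library as a covariate, 3 of the 10 calls were left, those of Hnf4g, Gata4 and Sox9. With the mean of the pan-epithelial genes as a covariate, 5 were left, those of Cdx2, Gata6, Klf4, Klf5 and Sox9. These 2 lists differed between the groups themselves: all 13 smooth muscle genes were lower in Apc Min controls than in WT and 12 of 13 were higher with DM-aKG than in controls. Of 15 pan-epithelial genes, 10 were lower and 1 was higher with DM-aKG than in controls, and 4 were lower and 6 higher in Apc Min controls than in WT. Of all genes, 27.6% were lower and 5.91% higher with DM-aKG than in controls, and 15.7% lower and 43.2% higher in Apc Min controls than in WT.

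The last comparison, of DM-aKG-treated Apc Min mice with WT, sets apart groups that differ in both genotype and treatment. Gata6 was higher and Gata4 lower in DM-aKG libraries, and the other 8 factors did not pass the test. That is 1 of 10 higher, where 21.9% of all genes were, and 1 of 10 lower, against 17.3%, with 39.2% of all genes called either way. Without Gata4, which passed the filter only through WT, 1 of the other 9 was higher and none was lower. Genes of other cell types were also called between the groups. Of 12 immune genes tested, 2 were lower with DM-aKG than in controls, 9 were lower and 2 higher in Apc Min controls than in WT, and 8 were lower and 1 higher with DM-aKG than in WT. Of 15 fibroblast genes, 7 were lower and 1 higher with DM-aKG than in controls, 10 were higher and 2 lower in Apc Min controls than in WT, and 2 were higher and 2 lower with DM-aKG than in WT. Of 10 endothelial genes, 1 was lower with DM-aKG than in controls, while 6 were higher in Apc Min controls and 9 with DM-aKG than in WT. Of all genes, 5.91% were higher and 27.6% lower with DM-aKG than in controls. The shares were 43.2% and 15.7% for Apc Min controls against WT, and 21.9% and 17.3% for DM-aKG against WT. For immune and endothelial genes, the share lower with DM-aKG than in controls was below that of all genes. The part of these cell types in the changes of the factors was not tested. The 3 comparisons share groups, so their values are set side by side and not correlated. Other scalings moved the median of all genes by more than 0.1 on the log2 scale. Under median-of-ratios scaling of RPKM, 1532 genes were higher and 1718 lower for DM-aKG against control, where the deposited scale gave 735 and 3432. For Apc Min control against WT the split was 3277 higher and 3420 lower under that scaling, where the deposited scale gave 5368 and 1948. Set against the median of all genes, the log2 changes for DM-aKG over control were 0.57 for Cdx1, 0.89 for Hnf4g and -1.56 for Sox9.

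**Figure D2:**
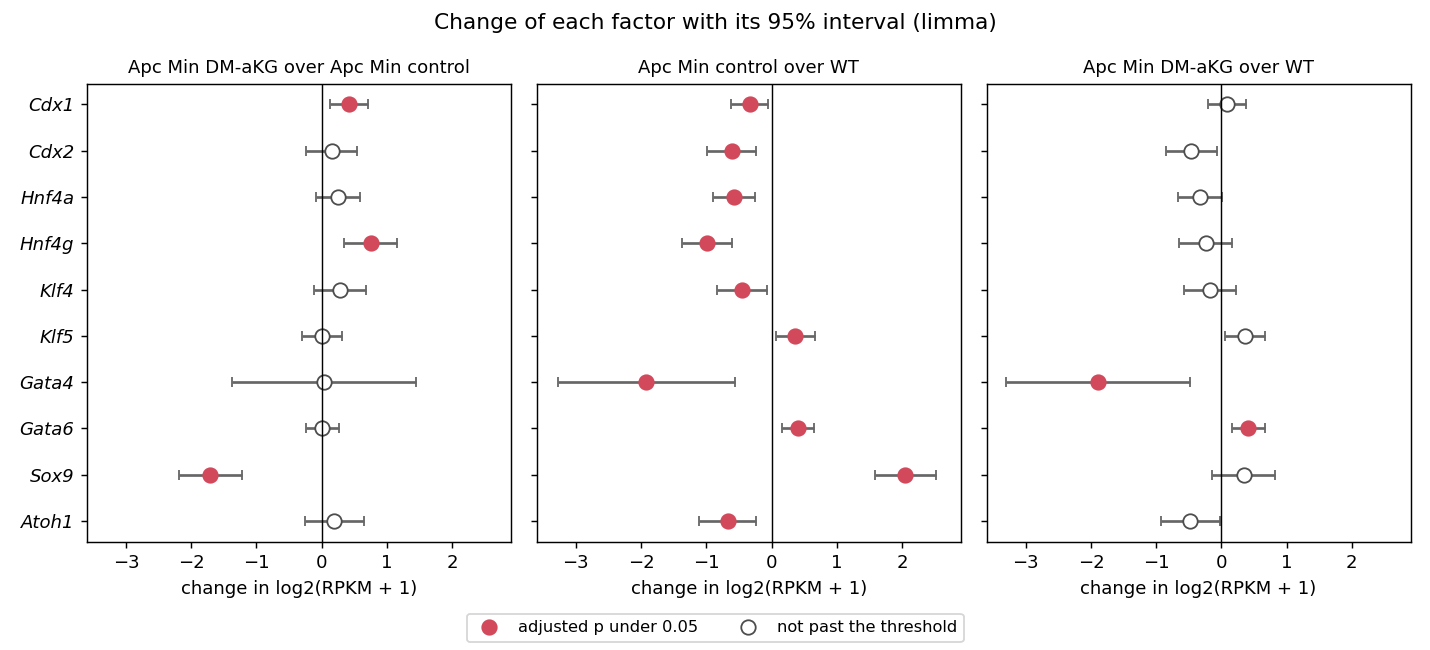
Change in log2(RPKM + 1) of the 10 factors in the 3 comparisons, with 95% confidence intervals from limma. For DM-aKG over control, Hnf4g (0.75) and Cdx1 (0.42) lie right of 0 and Sox9 (-1.71) left of it, and for control over WT Sox9 (2.05) and Gata4 (-1.92) lie farthest from 0.

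Cdx1 ranged from 47.4 to 64.9 RPKM with a median of 54.1 in DM-aKG libraries, from 30.5 to 51.6 RPKM with a median of 41.6 in Apc Min controls, and from 37.4 to 70.1 RPKM with a median of 47.9 in WT. Of the 6 DM-aKG libraries, 5 lay above every Apc Min control library, and the groups overlapped only in the sixth. The mean was 54.9 ± 5.71 RPKM with DM-aKG (SD, n = 6), 41.1 ± 7.40 RPKM in Apc Min controls and 52.5 ± 12.2 RPKM in WT (SD, n = 7 each). Cdx1 rose with DM-aKG by a log2 change of 0.42 ± 0.14 over control (SE, limma adjusted p = 0.0250). It was lower in Apc Min controls than in WT by a log2 change of -0.33 (limma adjusted p = 0.0394). DM-aKG libraries did not pass against WT (log2 change 0.09, limma adjusted p = 0.631).

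Both Cdx1 calls were sensitive to single libraries and to the smooth muscle genes. The rise with DM-aKG missed the threshold without DM-aKG replicate 1 (0.38, limma adjusted p = 0.0622) or without control replicate 4 (0.36, 0.0555). With the smooth muscle covariate the log2 change was 0.15 (limma adjusted p = 0.553), and with the pan-epithelial covariate 0.68 (adjusted p = 0.2001). Within replicates 1 to 4 it was 0.46 (limma adjusted p = 0.152) and within replicates 5 to 7 it was 0.34 (adjusted p = 0.132). The lower level in Apc Min controls than in WT was lost without any one of control replicates 3, 4, 5 and 7 or WT replicates 2, 4 and 7, with an adjusted p of 0.0518 to 0.0981 in limma. With the smooth muscle covariate it was -0.02 (limma adjusted p = 0.956).

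Cdx2, the factor most tied to the identity of intestinal epithelium, ranged from 37.4 to 65.3 RPKM in DM-aKG libraries with a median of 55.6. In Apc Min controls it ranged from 27.3 to 64.7 RPKM with a median of 51.4, and in WT from 55.2 to 83.0 RPKM with a median of 77.5. All groups overlapped. Cdx2 was lower in Apc Min controls than in WT by a log2 change of -0.61 (limma adjusted p = 0.00678), at a mean of 47.6 ± 14.4 RPKM in controls and 71.1 ± 11.7 RPKM in WT (SD, n = 7 each). That difference was -0.21 with the smooth muscle covariate (limma adjusted p = 0.551) and -0.55 within replicates 5 to 7 (adjusted p = 0.134). DM-aKG did not pass against control, at a log2 change of 0.15 (limma adjusted p = 0.561). Against WT it was -0.46 (limma adjusted p = 0.0582), and 5 single-library omissions brought it past the threshold (adjusted p 0.0328 to 0.0487).

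Hnf4a, the nuclear receptor at the highest level here, spanned 129.1 to 209.7 RPKM with a median of 154.7 in DM-aKG libraries, 82.8 to 157.5 RPKM with a median of 155.4 in Apc Min controls and 168.0 to 223.3 RPKM with a median of 193.1 in WT. Every Apc Min control library lay below every WT library. Hnf4a was lower in Apc Min controls than in WT by a log2 change of -0.58 (limma adjusted p = 0.00351). The value was -0.30 with the smooth muscle covariate (limma adjusted p = 0.328), -0.63 with the pan-epithelial covariate (adjusted p = 0.0567) and -0.60 within replicates 5 to 7 (adjusted p = 0.108). DM-aKG over control was 0.25 (limma adjusted p = 0.247), which passed with TMM factors (0.45, adjusted p = 0.0437), and DM-aKG over WT was -0.33 (adjusted p = 0.110).

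Hnf4g, its relative made mainly in the intestine, spanned 45.9 to 104.4 RPKM with a median of 66.3 with DM-aKG, 28.2 to 55.0 RPKM with a median of 40.3 in Apc Min controls and 59.5 to 109.2 RPKM with a median of 82.7 in WT. Apc Min controls and WT did not overlap, while DM-aKG libraries overlapped both. Hnf4g rose with DM-aKG by a log2 change of 0.75 ± 0.19 over control (SE, limma adjusted p = 0.00550), at a mean of 69.7 ± 22.8 RPKM with DM-aKG (SD, n = 6) and 40.1 ± 8.83 RPKM in controls (SD, n = 7). It was lower in Apc Min controls than in WT by a log2 change of -0.99 (limma adjusted p = 0.000148). DM-aKG over WT was -0.24 (limma adjusted p = 0.330). That the 2 HNF4 genes changed to different extents was not shown: the ratio of Hnf4a to Hnf4g passed in none of the 3 comparisons.

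The rise of Hnf4g with DM-aKG was 0.63 within replicates 1 to 4 (limma adjusted p = 0.0306) and 1.06 within replicates 5 to 7 (adjusted p = 0.0131). With the smooth muscle covariate it was 0.98 (limma adjusted p = 0.00988). With the pan-epithelial covariate it had the opposite sign, at -0.24 (limma adjusted p = 0.675), and the difference between Apc Min controls and WT was -0.30 (adjusted p = 0.318). No library left out alone ended either call.

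Gata4 varied widely between libraries of 1 group. In DM-aKG replicates 1 to 6 it was 2.05, 1.81, 0.131, 0.186, 0.141 and 12.3 RPKM. In Apc Min control replicates 1 to 7 it was 0.867, 4.04, 0.377, 5.94, 0.258, 0.581 and 0.987 RPKM. In WT replicates 1 to 7 it was 22.1, 1.60, 18.0, 0.486, 12.2, 12.03 and 12.4 RPKM. WT libraries reached the highest values, and WT replicates 2 and 4 lay among the Apc Min libraries, while DM-aKG replicate 6 lay among the WT ones. It reached 1 RPKM in 3 DM-aKG, 2 Apc Min control and 6 WT libraries, so it passed the filter only through WT, its highest group. At the lowest value, in DM-aKG replicate 3, the estimated depth corresponds to about 13.7 reads.

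Gata4 was lower in Apc Min controls than in WT by a log2 change of -1.92 (limma adjusted p = 0.0163) and lower with DM-aKG than in WT by -1.89 (adjusted p = 0.0333). DM-aKG over control was 0.03 (limma adjusted p = 0.977). With every gene above 0 in 1 library tested, the limma adjusted p against WT was 0.0225 for Apc Min controls and 0.0469 for DM-aKG. The DM-aKG difference from WT missed the threshold without any one of DM-aKG replicates 2 to 5 or WT replicates 1, 3, 5, 6 and 7 (limma adjusted p 0.0506 to 0.0813). Without DM-aKG replicate 6 it was -2.39 (limma adjusted p = 0.00593). The Apc Min control difference from WT was -1.06 within replicates 1 to 4 (limma adjusted p = 0.328), -3.06 within replicates 5 to 7 (adjusted p = 0.0160) and -1.24 with the pan-epithelial covariate (adjusted p = 0.365).

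The genes whose deviations from their group means were most like those of Gata4 were Plb1 (Pearson r = 0.966), Fam151a (0.946) and Lct (0.922), over 20 libraries and among 8731 genes. Lct encodes lactase and Plb1 a brush border phospholipase. Lct was 194.6 RPKM in DM-aKG replicate 6 and at most 1.85 RPKM in the other DM-aKG libraries. It was at most 3.17 RPKM in the Apc Min controls. Among WT libraries, Lct was 0.149 and 0.171 RPKM in replicates 2 and 4 and 32.6 to 229.2 RPKM in the others. Plb1 likewise reached 359.3 RPKM in DM-aKG replicate 6, against 2.77 and 0.361 RPKM in WT replicates 2 and 4. Slc10a2, the bile acid transporter of the ileum, went the other way at the extremes: 22.6 RPKM in DM-aKG replicate 6 and 16.4 RPKM in WT replicate 1, against 303.1 and 326.8 RPKM in WT replicates 2 and 4. In WT replicate 6, with Gata4 at 12.03 RPKM, it was 192.5 RPKM. Fabp6, another distal gene, was lowest among WT libraries in replicate 1 (158.2 RPKM). In DM-aKG replicate 6 it was 2984 RPKM, above the 2180 and 931.2 RPKM of DM-aKG replicates 2 and 5. Libraries of 1 group therefore differed in genes that are known to differ along the length of the gut, and the labels give no position. Their part in the Gata4 differences was not tested.

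**Figure D3:**
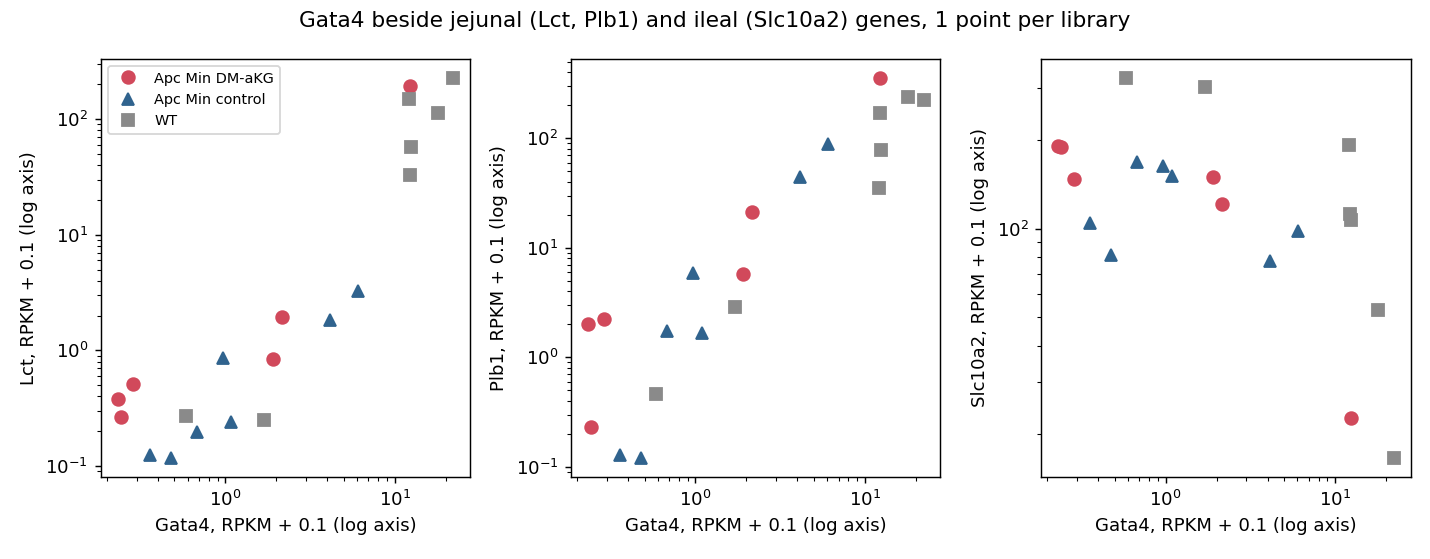
Level of Gata4 in each library (horizontal log axis, RPKM + 0.1) against Lct, Plb1 and Slc10a2 (vertical log axes, RPKM + 0.1), with 1 point per library in the colours of the 3 groups. Libraries high in Gata4, DM-aKG replicate 6 (12.3 RPKM) among them, are high in Lct and Plb1, and the lowest Slc10a2 values (16.4 and 22.6 RPKM) are in such libraries.

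Gata6 differed in the other direction from Gata4. It spanned 15.3 to 28.8 RPKM with a median of 19.5 with DM-aKG, 17.4 to 21.7 RPKM with a median of 20.7 in Apc Min controls and 11.6 to 17.7 RPKM with a median of 15.3 in WT. The groups overlapped. Gata6 was higher than in WT by a log2 change of 0.41 with DM-aKG (limma adjusted p = 0.0125) and 0.40 in Apc Min controls (adjusted p = 0.00629), and DM-aKG over control was 0.01 (adjusted p = 0.964). The control difference depended on the scaling: it was 0.24 under quantile normalization (limma adjusted p = 0.103), 0.17 under median-of-ratios scaling (0.284) and 0.16 with TMM factors (0.298). The higher level with DM-aKG than in WT kept its call under these 3 scalings and lost it with array weights (0.23, limma adjusted p = 0.0630), in replicates 1 to 4 only (0.36, 0.0820) and in replicates 5 to 7 only (0.56, 0.0923).

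Klf4 lay between 90.7 and 152.0 RPKM with a median of 123.6 with DM-aKG, between 68.3 and 140.3 RPKM with a median of 93.4 in Apc Min controls and between 90.5 and 181.1 RPKM with a median of 142.9 in WT. All groups overlapped. Klf4 was lower in Apc Min controls than in WT by a log2 change of -0.45 (limma adjusted p = 0.0381), a call lost on leaving out any one of 9 libraries, control replicates 2, 3, 5, 6 and 7 or WT replicates 1, 2, 3 and 5 (adjusted p 0.0518 to 0.0903). DM-aKG over control was 0.28 (limma adjusted p = 0.273) and DM-aKG over WT -0.18 (adjusted p = 0.472).

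Klf5 ran from 94.3 to 143.0 RPKM with a median of 114.6 with DM-aKG, from 84.9 to 147.4 RPKM with a median of 111.8 in Apc Min controls and from 63.1 to 114.1 RPKM with a median of 93.0 in WT, again with overlap. Klf5 was higher in Apc Min controls than in WT by a log2 change of 0.36 (limma adjusted p = 0.0364), which was 0.11 under median-of-ratios scaling (adjusted p = 0.489) and also 0.11 with TMM factors (adjusted p = 0.517). It was also lost without any one of control replicates 5, 6 and 7 or WT replicates 1, 2 and 3 (limma adjusted p 0.0682 to 0.0914). DM-aKG over control was 0.00 (limma adjusted p = 0.993), with a 95% interval from -0.31 to 0.31, and DM-aKG over WT was 0.36 (adjusted p = 0.0589).

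Sox9 gave the clearest separation of the 3 groups. Its level was 3.12 to 10.8 RPKM with a median of 5.27 in DM-aKG libraries, 11.6 to 26.0 RPKM with a median of 20.7 in Apc Min controls and 2.03 to 6.93 RPKM with a median of 4.08 in WT. No DM-aKG and no WT library reached the lowest Apc Min control library, while DM-aKG and WT overlapped. Sox9 fell with DM-aKG by 1.71 ± 0.23 on the log2 scale against control (SE, limma adjusted p = 1.26e-05), at a mean of 5.74 ± 2.67 RPKM with DM-aKG (SD, n = 6) and 20.5 ± 5.49 RPKM in controls (SD, n = 7). It was higher in Apc Min controls than in WT by a log2 change of 2.05 (limma adjusted p = 2.43e-07), a call kept in every alternative run. DM-aKG over WT was 0.35 (limma adjusted p = 0.241, 95% interval -0.14 to 0.83).

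The highest Sox9 value with DM-aKG was in replicate 2, and without it the change against control was -1.89 (limma adjusted p = 1.11e-06). With the smooth muscle covariate the change was -1.38 (limma adjusted p = 0.00310), and with the pan-epithelial covariate it was -1.45 and missed the threshold (adjusted p = 0.119). Within replicates 1 to 4 it was -1.37 (limma adjusted p = 0.00668) and within replicates 5 to 7 it was -2.26 (adjusted p = 0.00139). A test of the difference between these sets found no factor that passed in any of the 3 comparisons, with the smallest adjusted p for Sox9 (limma adjusted p = 0.440).

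Atoh1 spanned 2.18 to 6.60 RPKM with a median of 5.43 with DM-aKG, 1.85 to 6.18 RPKM with a median of 4.49 in Apc Min controls and 3.85 to 9.16 RPKM with a median of 7.83 in WT. The groups overlapped. Atoh1 was lower in Apc Min controls than in WT by a log2 change of -0.67 (limma adjusted p = 0.00974), which was -0.43 with the smooth muscle covariate (adjusted p = 0.312), -0.21 with the pan-epithelial covariate (adjusted p = 0.632) and -0.76 within replicates 1 to 4 (adjusted p = 0.0594). DM-aKG over control was 0.20 (limma adjusted p = 0.519). DM-aKG over WT was -0.48 (limma adjusted p = 0.0872), which passed without WT replicate 1 (-0.60, adjusted p = 0.0292).

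Set against other Wnt targets, Sox9 moved with the list and Cdx1 against it, the pattern that was known when the factors were listed. Of 26 Wnt target genes, 25 passed the filter of 1 RPKM in 6 libraries. Lef1, Notum, Prox1 and Wif1 passed it only through the Apc Min controls, where they were high, so a difference was built into their choice and they are left out of the counts. Of the other 21, Sox9 and Cdx1 among them, 19 were lower and 2 higher with DM-aKG than in control, where 27.6% of all genes were lower and 5.91% higher. Their median log2 change was -1.42, and that of all genes -0.14. The 2 higher were Cdx1 and Nkd2, an inhibitor of Wnt signalling that was named after its values were seen. Nkd2 was 7.08 ± 1.17 RPKM with DM-aKG (SD, n = 6), 3.73 ± 0.97 RPKM in Apc Min controls and 5.50 ± 1.03 RPKM in WT (SD, n = 7 each), and its log2 change over control was 0.79 (limma adjusted p = 0.000179). In Apc Min controls against WT, 18 of the 21 were higher and 2 were lower, again Cdx1 and Nkd2 (log2 change -0.47, limma adjusted p = 0.00454), with Ccnd1 not called. For all genes these shares were 43.2% higher and 15.7% lower. Lef1, a transcription factor of the Wnt pathway, was at 0.394 ± 0.487 RPKM with DM-aKG, 3.78 ± 1.16 RPKM in Apc Min controls and 0.088 ± 0.052 RPKM in WT. In DM-aKG libraries against WT, 4 of the 21 were higher and 1 was lower, and neither Cdx1 nor Sox9 was called. Of all genes, 21.9% were higher and 17.3% lower in that comparison.

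**Figure D4:**
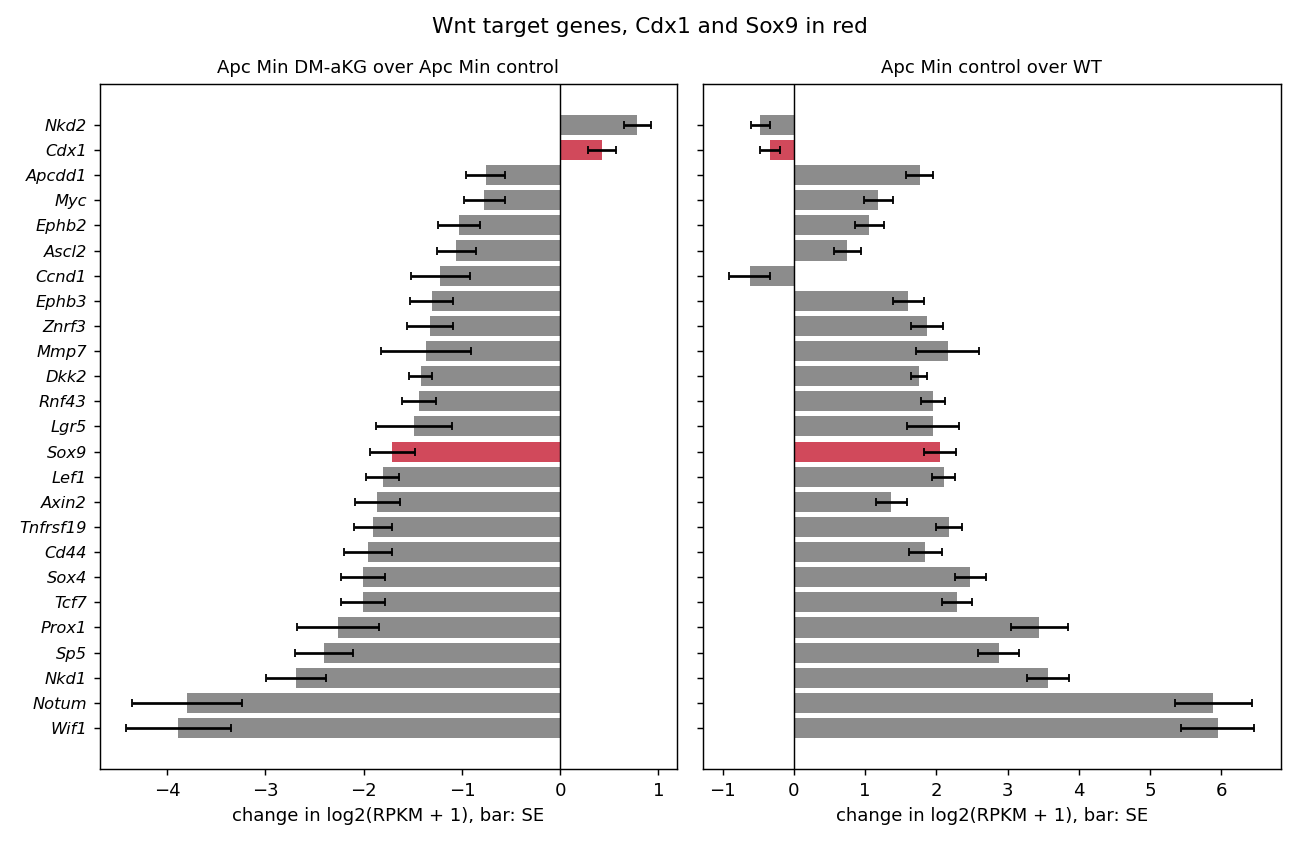
Change in log2(RPKM + 1) of the 25 Wnt target genes tested, DM-aKG over Apc Min control on the left and Apc Min control over WT on the right, with bars for the SE and Cdx1 and Sox9 in red. Cdx1 (0.42 and -0.33) points against most of the list and Sox9 (-1.71 and 2.05) with it. Lef1, Notum, Prox1 and Wif1 passed the filter only through the controls.

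Ratios between related factors within a library do not depend on its scaling, apart from the pseudocount. None of 12 ratio tests passed after Benjamini-Hochberg adjustment, each a 2-sided exact permutation test. Cdx1 over Cdx2 had a median of 1.08 with DM-aKG, 0.918 in Apc Min controls and 0.761 in WT, as a linear ratio. DM-aKG over WT differed by 0.55 on the log2 scale (exact p = 0.0175, adjusted p = 0.0699). Gata4 over Gata6 had a median of 0.0430 with DM-aKG, 0.0403 in Apc Min controls and 0.774 in WT. The log2 difference was -2.30 for DM-aKG over WT (exact p = 0.0105, adjusted p = 0.0629) and -2.32 for Apc Min control over WT (exact p = 0.00583, adjusted p = 0.0629). Klf4 over Klf5 had a median of 1.09 with DM-aKG, 0.732 in Apc Min controls and 1.30 in WT, and Apc Min control over WT differed by -0.82 (exact p = 0.0326, adjusted p = 0.0979). Hnf4a over Hnf4g had a median of 2.21 with DM-aKG, 3.64 in Apc Min controls and 2.28 in WT. Its log2 difference was -0.50 for DM-aKG over control (exact p = 0.104, adjusted p = 0.178) and 0.42 for Apc Min control over WT (exact p = 0.0967, adjusted p = 0.178).

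**Figure D5:**
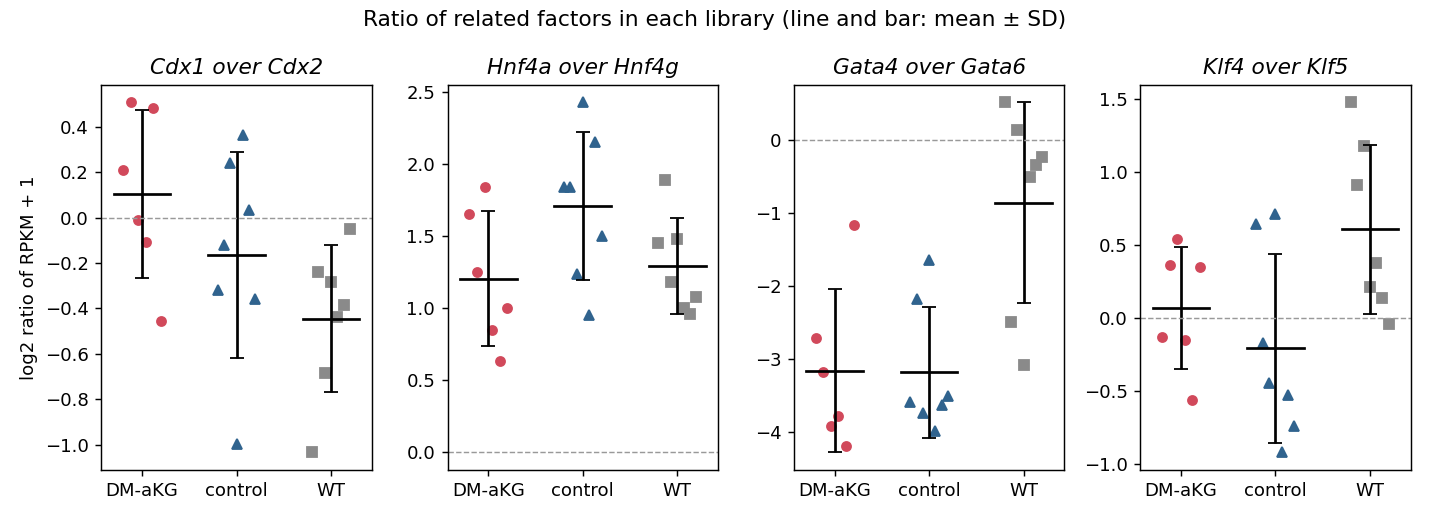
Log2 ratio of RPKM + 1 between related factors in each library, for DM-aKG, Apc Min control and WT from left to right, with the mean and SD. WT libraries spread from -3.09 to 0.51 for Gata4 over Gata6, and the 3 groups overlap in all 4 ratios.

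The factors also varied together between libraries of a group. After subtracting group means, Pearson r over the 20 libraries was 0.80 for Cdx2 and Hnf4a, 0.77 for Gata4 and Gata6 and -0.66 for Cdx2 and Sox9. For Klf4 and Klf5, the villus and crypt members of their family, it was -0.59, and for Cdx1 and Gata4 it was -0.60. Factors measured in the same library share its tissue composition and scaling, and levels of genes of other cell types differed between libraries. The coefficients therefore describe these libraries and carry no test. Among 8730 other genes, the closest to Cdx2 included Cdhr5, a protocadherin of the brush border (r = 0.928), and the closest to Hnf4a was Gata5, another intestinal GATA factor (r = 0.919). Gata5 averaged 18.5 ± 6.07 RPKM with DM-aKG, 16.7 ± 4.84 RPKM in Apc Min controls and 30.8 ± 3.58 RPKM in WT. Closest to Sox9 were Vgll4, Paics and Mecom (r = 0.909, 0.908 and 0.907), to Atoh1 Bcas1 (0.939) and to Cdx1 Scpep1 (0.863). For the remaining factors the closest were Akap7 for Hnf4g (0.852), Dlg3 for Gata6 (0.820), Bambi-ps1 for Klf4 (0.896) and Ppp4r3a for Klf5 (0.927).

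Other epithelial transcription factors were measured beside the 10. Of 28 listed, 26 passed the filter, of which Foxa2, Onecut2 and Prox1 did so only through the Apc Min controls and are left out of the counts. Of the other 23, 6 were higher and 8 lower with DM-aKG than in control, at a median log2 change of 0.24. Of all genes, 5.91% were higher and 27.6% lower. Sox4, a relative of Sox9 that is also in the Wnt target list, fell with DM-aKG to 7.53 ± 4.48 RPKM, against 32.0 ± 11.2 RPKM in Apc Min controls (log2 change -2.01, limma adjusted p = 1.15e-06). Foxa1, a forkhead pioneer factor of gut endoderm, was 7.37 ± 2.85 RPKM with DM-aKG, 21.9 ± 2.77 RPKM in controls and 6.82 ± 1.75 RPKM in WT. Foxa3 fell with DM-aKG as well (log2 change -1.01, limma adjusted p = 8.02e-06). Onecut2, a cut homeodomain factor of liver, pancreas and foregut, averaged 0.927 ± 1.35 RPKM with DM-aKG, 12.7 ± 4.03 RPKM in Apc Min controls and 0.150 ± 0.153 RPKM in WT. It reached 1 RPKM in 1 DM-aKG library, all 7 controls and no WT library, so these levels are given without a test. In Apc Min controls against WT, 11 of the 23 were higher and 4 lower at a median of 0.53, against 43.2% and 15.7% of all genes. In DM-aKG libraries against WT 6 were higher and 4 lower, against 21.9% and 17.3%. These shares against WT were near those of all genes. Ppara, the fatty acid receptor, had the smallest p of the list against WT, at 29.6 ± 13.4 RPKM with DM-aKG and 5.45 ± 0.937 RPKM in WT (log2 change 2.17, limma adjusted p = 2.00e-05).

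Among factors that act after Atoh1 in the secretory lineages, 7 of 18 passed the filter, and Bhlha15, Gfi1 and Neurod1 did so only through a group where they were high. Of the other 4, Spdef and Creb3l4 were lower with DM-aKG than in control, and Creb3l4 was higher in Apc Min controls than in WT. Spdef, which matures goblet and Paneth cells, averaged 3.78 ± 0.554 RPKM with DM-aKG and 5.81 ± 1.63 RPKM in controls (log2 change -0.49, limma adjusted p = 0.00777). The goblet cell list holds Atoh1, and Retnlb, which passed only through the controls, is left out of it. Of its other 13 genes, 2 were higher and 3 lower with DM-aKG than in control, where 5.91% of all genes were higher and 27.6% lower, so the share lower was near that of all genes. In Apc Min controls against WT, 1 was higher and 7 were lower, against 43.2% and 15.7% of all genes. Of 13 Paneth cell genes, 9 were higher and 3 lower with DM-aKG than in control, at a median log2 change of 2.56. Against 5.91% and 27.6% of all genes, only the share lower was near that of all genes. In Apc Min controls against WT, 3 were higher and 8 lower at a median of -2.09, against 43.2% and 15.7% of all genes. With DM-aKG against WT 3 were higher and none lower by the same limma test, against 21.9% and 17.3%. Defa24, an antimicrobial alpha-defensin, was 3302 ± 1313 RPKM with DM-aKG, 737.4 ± 804.3 RPKM in controls and 2431 ± 1211 RPKM in WT. The 3 lower were Mmp7, Pla2g2a and Habp2. Their means were 79.5, 63.1 and 5.36 RPKM with DM-aKG, and 192.9, 296.1 and 25.3 RPKM in controls.

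Enterocyte genes, among them known targets of HNF4 and CDX2, were counted without Lct, which passed the filter only through WT. Of the other 28, 13 were higher with DM-aKG than in control and none was lower by limma, at a median log2 change of 0.55, where 5.91% of all genes were higher and 27.6% lower. In Apc Min controls against WT, 2 were higher and 17 lower at a median of -0.71, against 43.2% and 15.7% of all genes. Dpp4, a brush border peptidase, averaged 121.9 ± 26.7 RPKM with DM-aKG, 73.1 ± 27.2 RPKM in Apc Min controls and 175.1 ± 21.0 RPKM in WT. Mgam, a starch-digesting enzyme, was 371.2 ± 45.3 RPKM with DM-aKG, 260.4 ± 56.3 RPKM in controls and 421.1 ± 43.1 RPKM in WT. Against WT, DM-aKG libraries had 4 of 28 higher and 8 lower, where 21.9% of all genes were higher and 17.3% lower.

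Genes of other parts of the gut were measured as well, since CDX and GATA factors hold regional identity. Of 17 stomach and foregut genes, 6 passed the filter, and Anxa10, Gkn3, Muc6, Onecut2 and Vsig1 did so only through the 7 Apc Min controls, so no count of their changes is given. Ctse, a stomach protease and the other of the 6, averaged 12.2 ± 21.0 RPKM with DM-aKG, 113.1 ± 34.9 RPKM in Apc Min controls and 1.14 ± 0.596 RPKM in WT. It was lower with DM-aKG than in control (log2 change -4.35, limma adjusted p = 1.94e-05). Of 13 proximal small intestine genes, Cybrd1 and Lct passed through 1 group only. Among the other 11, none was higher and 3 were lower with DM-aKG than in control (limma), against 5.91% and 27.6% of all genes, and 4 were higher and 2 lower in Apc Min controls than in WT, against 43.2% and 15.7%. These shares were near those of all genes. Of 8 distal small intestine genes, 2 (Cubn and Fgf15) were higher with DM-aKG than in control and none was called in Apc Min controls against WT. Of all genes, 5.91% were higher with DM-aKG than in control, and 58.8% were called in Apc Min controls against WT. Fgf15, the ileal hormone that signals to the liver, was also higher with DM-aKG than in WT (log2 change 2.31, limma adjusted p = 0.0183).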

How the data were processed

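RNA of 20 mouse libraries was measured, and the labels gave each its group. Extraction used a Qiagen kit and library preparation Illumina TruSeq reagents, per the labels' protocols. The submitters' processing notes name CASAVA 1.8, HISAT2 2.0.4, Partek and mm10. What each did, which annotation was used and whether strand was counted was not given in the sources used here. The authors deposited 1 table, read here as RPKM because of its values. RPKM is relative to the library total, so large changes in abundant genes shift the rest.

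Depth was estimated from steps between low values on the assumption of whole reads. Of the values compared, 66.4 to 71.7% came within 0.1 of whole reads (at most 8 reads), against 20% for even spread, so counts were not recovered and no count test was run. No 2 libraries held identical values.

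The fit covered log2(RPKM + 1) of all 20 libraries for genes reaching 1 RPKM in 6 or more, with limma 3.58.1 in R 4.3.3 (trend and robust settings, statmod 1.5.0). Tests were 2-sided and called at a Benjamini-Hochberg adjusted p under 0.05. Fold changes on this scale understate the change of low genes. The fit was tested on simulated data. Ratios used exact permutation tests (scipy 1.17.1), which can go no lower than p = 0.000583 with 7 libraries on each side or 0.00117 with 6 and 7. Figures used matplotlib 3.10.9. The 10 factors and all gene lists were chosen with earlier results of these data known. Named genes were the 10 factors, up to 4 called genes of smallest p per list and comparison, and the 3 genes most like each factor. Others, such as Nkd2, Fabp6 and the falling Paneth cell genes, were named after their values were seen. Listed genes that passed the filter only through 1 group were left out of the counts of epithelial and Wnt target lists, except the pan-epithelial list, a choice made after the values were seen. Counts over the 10 factors keep Gata4, and the main counts against WT are also given without it. Alternatives varied pseudocount, filter, scaling, weights, covariates and the libraries used. TMM factors were computed on RPKM and multiplied by each library's sum.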

Additional observations from a re-analysis of the deposited data

Results flagged for a closer look

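A library stood far from the others of its group in 3 of 30 checks of a factor within a group, where chance alone gives about 1 in 20. Gata4 was 12.3 RPKM in DM-aKG replicate 6, above the other 5 DM-aKG libraries. Sox9 was 10.8 RPKM in DM-aKG replicate 2, the highest of its group, and Atoh1 was 2.18 RPKM in that same library, the lowest of its group.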

How the results depend on the processing

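Over the 10 factors, 3 comparisons and all alternatives, 930 values kept direction and side of the threshold, 81 lost and 31 gained a call, and 38 changed sign. The cause was not tested. Factors called for Apc Min control against WT were 10, and 3 with the smooth muscle covariate and 5 with the pan-epithelial covariate, in replicates 1 to 4 only and in replicates 5 to 7 only. For DM-aKG against control they were 3, and 0 with the pan-epithelial covariate. For DM-aKG against WT they were 2, and 4 with that covariate, quantile normalization, median-of-ratios scaling, array weights, the 2 groups alone or replicate sets as a factor, and 1 in replicates 5 to 7 only. Leaving out 1 library gave 2 to 3 factors for DM-aKG against control, 7 to 10 for Apc Min control against WT and 1 to 4 for DM-aKG against WT.

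Genes higher and lower with DM-aKG than in control were 735 and 3432. They were 1630 and 1644 with TMM factors, 1532 and 1718 with median-of-ratios scaling, 1750 and 1849 with quantile normalization, 459 and 2212 with the filter of 5 RPKM, 404 and 1821 in replicates 1 to 4 only and 5 and 78 with the pan-epithelial covariate. The higher count was also 227 with the smooth muscle covariate and 381 in replicates 5 to 7 only. For Apc Min control against WT the counts were 3222 and 3468 (TMM), 3277 and 3420 (median-of-ratios), 3239 and 3348 (quantile), 2912 and 573 (smooth muscle) and 3383 and 1238 (pan-epithelial). The higher count was 3306 with the filter of 5 RPKM and the lower one 1141 in replicates 5 to 7 only. For DM-aKG against WT the higher count was 1712 with that filter, and in replicates 5 to 7 only the counts were 198 and 349.

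Among values that changed sign, only Hnf4g for DM-aKG over control (-0.24, pan-epithelial covariate) was called on the deposited scale. The others, for DM-aKG over control, follow. With the pan-epithelial covariate, Gata4 was -0.95, Gata6 -0.14, Klf5 -0.57 and Atoh1 -0.47. With the smooth muscle covariate, Cdx2 was -0.19 and Atoh1 -0.00599. With array weights, Gata4 was -0.56, Gata6 -0.18 and Klf5 -0.11. Gata4 was -0.28 and -0.0432 with pseudocounts of 0.1 and 0.5, and its ratio to Gata6 -0.29 with 0.1. In replicates 1 to 4 only, Gata4 was -0.74, Gata6 -0.13, Gata4 over Gata6 -0.61 and Klf4 over Klf5 -0.0300. In replicates 5 to 7 only, Klf5 was -0.0746 and Atoh1 -0.0429. For DM-aKG over WT in replicates 5 to 7 only, Sox9 was -0.25 and Klf4 0.0692. Leaving out 1 library gave -0.47 to 0.29 for Gata4, -0.0902 to 0.0841 for Gata6, -0.0669 to 0.0645 for Klf5 and -0.38 to 0.28 for Gata4 over Gata6 (DM-aKG over control), and -0.21 to 0.0280 for Hnf4a over Hnf4g (DM-aKG over WT). Some ratios passed in a few of the runs with 1 library left out. Over all such runs, passing or not, Cdx1 over Cdx2 ranged over 0.45 to 0.66 for DM-aKG over WT (permutation adjusted p 0.0233 to 0.130). Gata4 over Gata6 ranged over -2.70 to -2.07 for DM-aKG over WT and -2.69 to -2.09 for Apc Min control over WT (permutation adjusted p 0.0233 to 0.117 in both).

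Same-numbered libraries deviated together (r over 0.1) in 4 of 6 pairs of DM-aKG and control, 3 of 7 of control and WT, and 1 of 6 of DM-aKG and WT. In the same order, the most alike library of the other group had the same number in 1, 1 and 0 cases. The labels state no pairing, so the numbers were not taken as pairing. With the replicate block, 3, 9 and 3 factors were called for DM-aKG over control, Apc Min control over WT and DM-aKG over WT, with 758 and 3603, 5675 and 2084, and 3151 and 2335 genes higher and lower. Cdx1 (-0.33, limma adjusted p = 0.0569) lost its call for Apc Min control over WT and Gata4 (-1.85, 0.0598) for DM-aKG over WT, and Cdx2 (-0.47, 0.0390) and Klf5 (0.40, 0.0123) gained one for DM-aKG over WT. Depth limits Gata4 most, whose lowest value corresponds to about 13.7 reads.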
